A study of Mus musculus with 12 samples.

Results

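Complement transcripts were followed in 12 4T1 tumours through 9 genes, out of the 35944 genes tabulated. They were chosen by name as the components C1qa, C1qb, C1qc, C4b, C3, Cfb and Cfp and the receptors C3ar1 and C5ar1. 4T1 cells are an established line from a mammary carcinoma of a BALB/c mouse, and they grow in that strain with its immune system intact. Female BALB/c mice aged 6 to 8 weeks received 100000 4T1 cells under the skin of the flank, and from day 5 they were given peritumoural injections of extracellular vesicles (EVs), 3 µg every 2 days. Tumours were taken on day 21, and polyadenylated RNA of each tumour was sequenced as 1 library. The EVs came from the mouse endothelial cell line MS-1 and had been electroporated with a miRNA mimic. The 4 groups of 3 tumours were named after that mimic. In the ctrl group it was cel-miR-67, a nematode miRNA with no mouse counterpart, and in the others it was the mouse miR-142-5p, the mouse miR-183-5p or the mouse miR-222-3p. All 4 groups received electroporated EVs, so no tumour without EVs was compared, and the whole tumour was sequenced rather than a sorted cell type.

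Complement is a cascade of plasma proteins that marks surfaces for uptake and attracts leukocytes. The classical pathway starts when C1q, built of A, B and C chains, binds antibody or altered surfaces and its proteases cleave C4 and C2. The lectin pathway starts from sugar-binding proteins, and the alternative pathway from C3 itself with factor B (Cfb), factor D (Cfd) and properdin (Cfp). All of them cleave C3 and then C5, and the small fragments C3a and C5a act through C3ar1 and C5ar1. The liver makes most plasma complement, whereas macrophages are a well known source of C1q in tissues and tumours.

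The mature sequences of the 3 mouse miRNAs are shown first because each injected mimic differs from the others in its seed, the stretch that pairs with target transcripts. Sequences are from RefSeq on GRCm38.p6, written 5′ to 3′ with the seed, bases 2 to 8, in capitals.
miR-142-5p: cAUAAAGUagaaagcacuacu
miR-183-5p: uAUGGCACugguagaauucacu
miR-222-3p: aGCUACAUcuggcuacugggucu
The 3 seeds differ, and matches to them were looked for in the 3′ UTRs of the complement genes. For each gene, the 3′ UTR of its main transcript was searched for matches of at least 7 bases (7mer-A1, 7mer-m8 or 8mer). A match to miR-142-5p was held by 0 of the 9 genes, against 21.2% of the 14596 genes searched. A match to miR-183-5p was held by 1 of the 9 genes, against 14.7%, and a match to miR-222-3p by 1 of the 9, against 16.0%. In both cases the gene was C3ar1, whose 3′ UTR of 2688 bases was the longest of the 9. The UTRs of C3, Cfb, C4b, Cfp, C1qb, C1qa, C1qc and C5ar1 were 46, 56, 109, 143, 163, 240, 242 and 1298 bases long. The C3ar1 matches are shown with the matched bases in capitals, as they read on the transcript from the minus strand of GRCm38.
C3ar1, miR-183-5p match at chr6:122848246-122848275: tgcttgccttcGTGCCATcatctcagtgta
C3ar1, miR-183-5p match at chr6:122847556-122847585: gtgtgtagtaaGTGCCATtatccacccaac
C3ar1, miR-222-3p match at chr6:122848231-122848260: catcatctcagTGTAGCAcacacaatctag
The windows of the first miR-183-5p match and of the miR-222-3p match overlap. Such a match is a description of the letters and says nothing of whether a mimic reached the cells that express C3ar1.

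The 9 genes lie on the minus strand at 6 places in GRCm38. C1qb (chr4:136880129-136886187), C1qc (chr4:136889804-136893065) and C1qa (chr4:136895917-136898803) are neighbours on chromosome 4. C4b (chr17:34728380-34743882) and Cfb (chr17:34856374-34862518) lie in the major histocompatibility region of chromosome 17, and C3 (chr17:57203970-57228136) lies further along it. Cfp lies at chrX:20925454-20931555, C3ar1 at chr6:122847138-122856161 and C5ar1 at chr7:16246743-16259540. Promoter sequences from RefSeq matched 6 of the 9 genes (C1qb, C1qc, C3, C3ar1, C5ar1 and Cfp), and the 250 bases before the start were searched on both strands for short motifs. The PU.1 motif GAGGAA, named for a transcription factor of myeloid cells, was held by C1qb and C1qc, 2 of the 6, against 23.25% of 32851 promoters. The C/EBP motif TTGCNNAA was held by C3 only, against 9.56%. The NF-kB motif GGGANNNCC was held by C1qc and C3, against 15.8%, and the MAF motif TGCTGA by C1qb, C3, C3ar1 and C5ar1, against 16.1%. The interferon response motif GAAANNGAA was held by C5ar1 (7.13% of promoters) and TATAAA by C3ar1 (12.4%), and the STAT motif TTCNNNGAA was held by 0 of the 6 (7.02%). Short stretches are shown for both C1q promoters, whose genes varied together, and for C3, which did not vary with them. The part of these motifs in that pattern was not tested. The capitals mark PU.1 in C1qb and, on the opposite strand, in C1qc, and C/EBP followed by NF-kB in C3.
C1qb, chr4:136886213-136886242: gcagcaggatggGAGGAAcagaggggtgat
C1qc, chr4:136893090-136893119: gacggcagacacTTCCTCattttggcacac
C3, chr17:57228156-57228185: tatgTTGCGAAAttttgGGCAGTCCCtggt
The motif of C1qb began 30 bases before the start site, that of C1qc 193 bases before it, and those of C3 45 and 32 bases before it.

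Libraries held between 20285968 and 27021401 estimated reads, and the 9 genes between 727 (C5ar1) and 13875 (C1qa) reads in any one tumour, so all 9 passed the count filter in every group. Carcinoma cell markers (6 genes) summed to between 1448 and 2216 TPM, macrophage markers (8 genes) to between 448 and 737, and fibroblast markers (8 genes) to between 298 and 1407. TPM corrects reads for transcript length and for the size of the library, so it allows genes to be compared with each other. Hepatocyte markers (5 genes) summed to at most 1.15 TPM, with 4 of the 5 below 0.5 TPM in every tumour. A pair of libraries held other tissue. Tumour 3 of the miR-142-5p group had 419 TPM of B cell markers (4 genes), against at most 2.79 in the other 11 tumours. The third miR-183-5p tumour had 274 TPM of skeletal muscle markers (4 genes), against at most 14.4 elsewhere. A further difference of untested origin ran across groups, since the mitochondrial pseudogene Gm28661 took between 7.13% and 41.8% of the reads it shares with mt-Co2 in 8 libraries but at most 0.324% in the 3 miR-222-3p libraries and miR-183-5p tumour 3. For the miR-222-3p group this feature of the libraries and the treatment cannot be told apart.

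C1q was the most abundant of these transcripts by a wide margin. C1qa averaged 728 ± 167 TPM (SD, n = 12) and ranked 195th of the 24414 genes with any reads. C1qb averaged 505 ± 103 TPM and C1qc 408 ± 89.0 TPM, so that the transcripts of the 3 chains together came to between 943 and 2351 TPM. C4b, the mouse C4 protein of the classical pathway, followed at 174 ± 15.6 TPM. The alternative pathway genes Cfb, Cfp and C3 averaged 110 ± 18.4, 79.8 ± 6.46 and 71.7 ± 19.9 TPM. Both receptors were low, C3ar1 at 26.7 ± 5.27 TPM and C5ar1 at 25.1 ± 3.12 TPM.

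**Figure D1:**
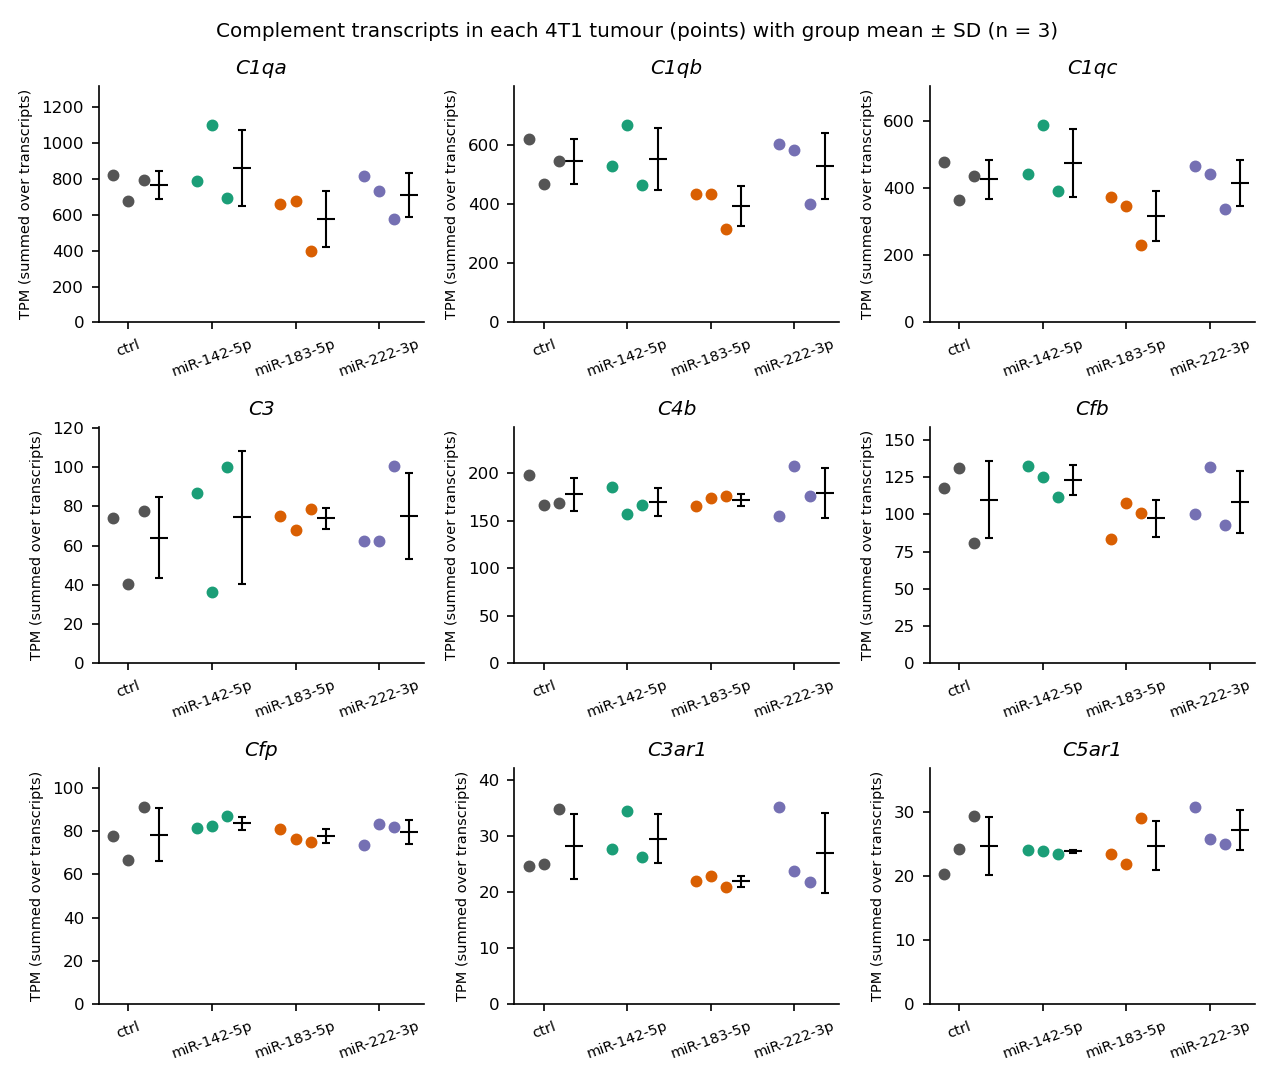
TPM of each complement gene in the 12 tumours (points, in the order of their numbers) with the group mean ± SD (n = 3) beside them, each panel on its own axis from 0. The C1q genes share 1 pattern, with tumour 2 of miR-142-5p highest and tumour 3 of miR-183-5p lowest, while C4b and Cfp vary least.

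The order C1qa, C1qb, C1qc, C4b, Cfb held in all 4 groups. Ranges of C1qb and C1qc overlapped in every group, as did those of Cfp and C3, and ranges of C1qa and C1qb overlapped in the miR-183-5p and miR-222-3p groups. C1qc and C4b did not overlap in any group. C3ar1 ranked above C5ar1 in ctrl and miR-142-5p tumours and below it in the other two groups, with ranges that overlapped in all but the miR-142-5p group. Order in the middle of the list depended on which transcripts were summed. C4b-203, an annotated retained intron, carried on average 5.89% of the C4b reads but 32.4% of its TPM, because it is short. With the main transcript alone, C4b averaged 96.4 ± 11.8 TPM, Cfp 68.5 ± 5.82, C3 55.2 ± 17.5 and Cfb 44.9 ± 15.8, which put Cfb below Cfp and C3 instead of above them. That alternative was chosen after seeing the data.

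**Figure D2:**
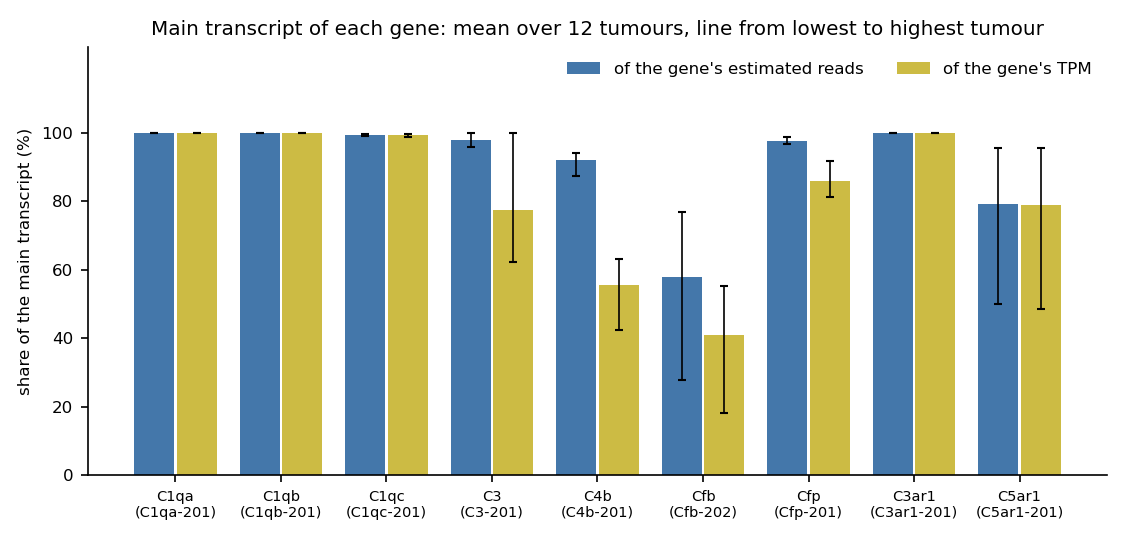
Share of each gene's estimated reads (blue) and of its TPM (yellow) that fell to its main transcript, as the mean over 12 tumours with a line from the lowest to the highest tumour. C1qa, C1qb and C3ar1 have 1 quantified transcript each, whereas the main transcript of C4b held 92.0% of reads and 55.5% of TPM.

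The split between transcripts was unsteady for Cfb and C5ar1. Cfb-202 took between 27.8% and 76.9% of the Cfb reads of a tumour, and Cfb-201 between 3.11% and 45.7%. A second transcript of C5ar1 took between 4.48% and 48.8% of the C5ar1 reads. C3-203 took at most 4.14% of the C3 reads of a tumour but between 0% and 37.7% of its TPM. Read totals per gene do not depend on these splits. The comparisons between groups use those totals with an offset for the gene's mean transcript length, weighted by TPM, which does depend on them. Reads of C4b could include reads of its near copy C4a, since the transcripts are 95.9% identical over 5378 bases, and C4a was not analysed here. Cfb shares 2248 bases with the readthrough gene Gm20547, which held between 0 and 61 reads a tumour, against 2484 to 3979 for Cfb.

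C1q transcripts varied together from tumour to tumour. In ctrl tumours 1 to 3, C1qa was at 823, 676 and 795 TPM, and in miR-142-5p tumours at 790, 1098 and 693 TPM. In miR-183-5p tumours it was at 660, 675 and 397 TPM, and in miR-222-3p tumours at 818, 733 and 578 TPM. The miR-183-5p values were each below the lowest ctrl value of 676 TPM, though 1 of them by under 2 TPM, and they overlapped with miR-222-3p. On normalised counts C1qa overlapped between miR-183-5p and ctrl, at 9688 in miR-183-5p tumour 2 and 9169 in ctrl tumour 2. C1qb was at 620, 469 and 545 TPM in ctrl tumours and at 434, 433 and 315 TPM in miR-183-5p tumours, with no overlap. It was at 528, 666 and 463 TPM in miR-142-5p tumours and at 603, 584 and 399 TPM in miR-222-3p tumours. C1qc was at 479, 363 and 436 TPM in ctrl tumours, 442, 586 and 392 TPM in miR-142-5p tumours, 373, 345 and 231 TPM in miR-183-5p and 466, 441 and 338 TPM in miR-222-3p tumours. For all 3 chains the highest tumour was miR-142-5p tumour 2 and the lowest miR-183-5p tumour 3, the library with muscle markers.

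Ratios between the chains moved far less than their levels. The ratio of C1qa to C1qc TPM lay between 1.66 and 1.95 over the 12 tumours, with a coefficient of variation of 4.61%, against 22.9% for C1qa itself. The ratio of C1qb to C1qc lay between 1.14 and 1.37. On the scale of log2(normalised count + 1), C1qa and C1qc had a Pearson r of 0.98 (Spearman rho 0.90) over the 12 tumours, with adjusted permutation p = 0.00012 and 0.00216, over 36 pairs of genes. C1qa and C1qb had r = 0.94 and rho = 0.94, and C1qb and C1qc r = 0.97 and rho = 0.90. Without the 2 tumours farthest from the median, r was 0.94 for C1qa and C1qc, 0.92 for C1qa and C1qb and 0.96 for C1qb and C1qc. On deviations from group means, r was 0.98, 0.94 and 0.97. In bulk tumours, fewer cells of a type and less RNA per cell cannot be told apart.

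C3, the protein on which the pathways converge, varied most of the 9, with a coefficient of variation of 27.8%, and in another order than C1q. It was at 73.8, 40.3 and 77.7 TPM in ctrl tumours, 86.5, 36.2 and 100.1 TPM in miR-142-5p tumours, 74.9, 67.8 and 78.6 TPM in miR-183-5p tumours and 62.2, 62.5 and 100.3 TPM in miR-222-3p tumours. The lowest value was in miR-142-5p tumour 2, the tumour with the highest C1q, and all 4 groups overlapped. C3 and C1qa had r = -0.40 and rho = -0.42 over the 12 tumours (adjusted permutation p = 0.535 and 0.487), and r was 0.02 without the 2 farthest tumours. C4b was the steadiest after Cfp, from 154 to 207 TPM. Its group means were 178 ± 17.6 TPM in ctrl, 169 ± 14.5 in miR-142-5p tumours, 172 ± 5.78 in miR-183-5p and 179 ± 26.4 in miR-222-3p tumours.

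Cfb, the protease of the alternative C3 convertase, averaged 110 ± 25.9 TPM in ctrl, 123 ± 10.3 in miR-142-5p tumours, 97.4 ± 12.6 in miR-183-5p and 108 ± 20.6 in miR-222-3p tumours. Cfp, which stabilises that convertase and is made by leukocytes, lay between 66.5 and 90.9 TPM in all 12 tumours. Its TPM values in the miR-142-5p group (81.6, 82.4 and 87.0) were all above those in the miR-183-5p group (81.1, 76.5 and 75.1), but the nearest values were closer than the SD of 2.95 TPM within the miR-142-5p group.

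C3ar1, the receptor for C3a, was low and even in the miR-183-5p tumours, at 22.1, 22.9 and 20.9 TPM. It was at 24.7, 25.0 and 34.8 TPM in ctrl, 27.8, 34.5 and 26.4 TPM in miR-142-5p and 35.2, 23.8 and 21.9 TPM in miR-222-3p tumours. All 3 miR-183-5p values lay below all ctrl and all miR-142-5p values and overlapped with miR-222-3p. C5ar1, the receptor for C5a, showed no such order. It was at 20.4, 24.1 and 29.3 TPM in ctrl tumours, 24.04, 23.90 and 23.48 TPM in miR-142-5p tumours, 23.4, 21.8 and 29.0 TPM in miR-183-5p and 30.7, 25.7 and 25.0 TPM in miR-222-3p tumours, and its groups overlapped apart from miR-222-3p, which lay above miR-142-5p. On normalised counts those groups overlapped too, at 969 in miR-222-3p tumour 2 and 972 in miR-142-5p tumour 1.

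To ask whether any mimic altered complement expression, each group was compared with ctrl across all genes (DESeq2 Wald test on estimated counts, Benjamini-Hochberg adjustment, threshold 0.05). None of the 9 genes passed in any comparison. Against ctrl, the miR-142-5p group had 0 of 9 genes called, where 0.00649% of all genes tested were called, and 0 of 9 had an unadjusted p under 0.05, where 3.56% of genes had one. The miR-183-5p group had 0 of 9 called (background 0%) and 1 of 9, C1qb, with an unadjusted p under 0.05 (background 3.22%). The miR-222-3p group had 0 of 9 called (background 0.026%) and 0 of 9 with an unadjusted p under 0.05 (background 2.29%). Tested with edgeR, the count was also 0 called in each comparison, with 0, 1 and 0 genes at an unadjusted p under 0.05.

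Estimates against ctrl were small for most genes. In miR-142-5p tumours, 7 of the 9 log2 fold changes were above 0, with a median of 0.11 beside -0.0050 over all genes. Among them were C3 at 0.22 (95% interval -0.44 to 0.87) and C1qa at 0.18 (-0.27 to 0.64). That direction rested on single tumours. Without miR-142-5p tumour 2, 3 of the 9 were above 0, with C1qa at -0.03, C1qb at -0.13, C1qc at -0.02, C3ar1 at -0.04 and C3 at 0.54. Without ctrl tumour 2, 4 were above 0, with C3 at -0.04. In miR-222-3p tumours, 4 were above 0 and 5 below, with a median of -0.04 beside -0.01, and the one farthest from 0 was C3 at 0.23 (-0.43 to 0.89). With 1 tumour left out, the number above 0 ranged from 2 to 7, and C3 was at -0.02 without ctrl tumour 2 and at -0.09 without miR-222-3p tumour 3. C3 was also at -0.05 with all tumours kept but without the length offset. In miR-183-5p tumours, 6 were below 0, with a median of -0.16 beside -0.01. Those comparisons share the ctrl tumours. For C3 the interval in miR-222-3p tumours ran from 0.744-fold to 1.86-fold, so smaller changes were not detectable with 3 tumours a group.

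The C1q genes and C3ar1 were the members lowest in miR-183-5p tumours relative to ctrl. C1qb had a log2 fold change of -0.45 (SE 0.21, 95% interval -0.87 to -0.04, unadjusted p = 0.0314, adjusted p = 0.9998 in DESeq2). C1qc had -0.42 (-0.85 to 0.01), C1qa -0.39 (-0.84 to 0.06) and C3ar1 -0.33 (-0.68 to 0.03). Normalised counts of C1qb and of C3ar1 did not overlap between the groups, 2 of the 9 genes with lower values, where 4.75% of all genes tested showed the same. Without miR-183-5p tumour 3, the library with muscle markers, the values were -0.32 for C1qb, -0.24 for C1qc, -0.18 for C1qa and -0.30 for C3ar1. Without ctrl tumour 1, C1qb was at -0.28 and C1qc at -0.25, and without ctrl tumour 3, C3ar1 was at -0.20. Markers of other cells also differed between the groups. Fibroblast markers summed to between 939 and 1134 TPM in miR-183-5p tumours, to between 411 and 930 TPM in ctrl, to between 298 and 790 TPM in miR-142-5p and to between 393 and 1407 TPM in miR-222-3p tumours. Neutrophil markers (8 genes) summed to between 1889 and 3058 TPM in miR-183-5p tumours, to between 1057 and 2031 TPM in ctrl, to between 1031 and 1667 TPM in miR-142-5p and to between 888 and 2020 TPM in miR-222-3p tumours. The fibroblast sum of miR-183-5p tumours thus lay above ctrl and miR-142-5p tumours without overlap, and the neutrophil sum above miR-142-5p tumours. The part of muscle tissue, fibroblasts and neutrophils in the C1q and C3ar1 values was not tested.

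**Figure D3:**
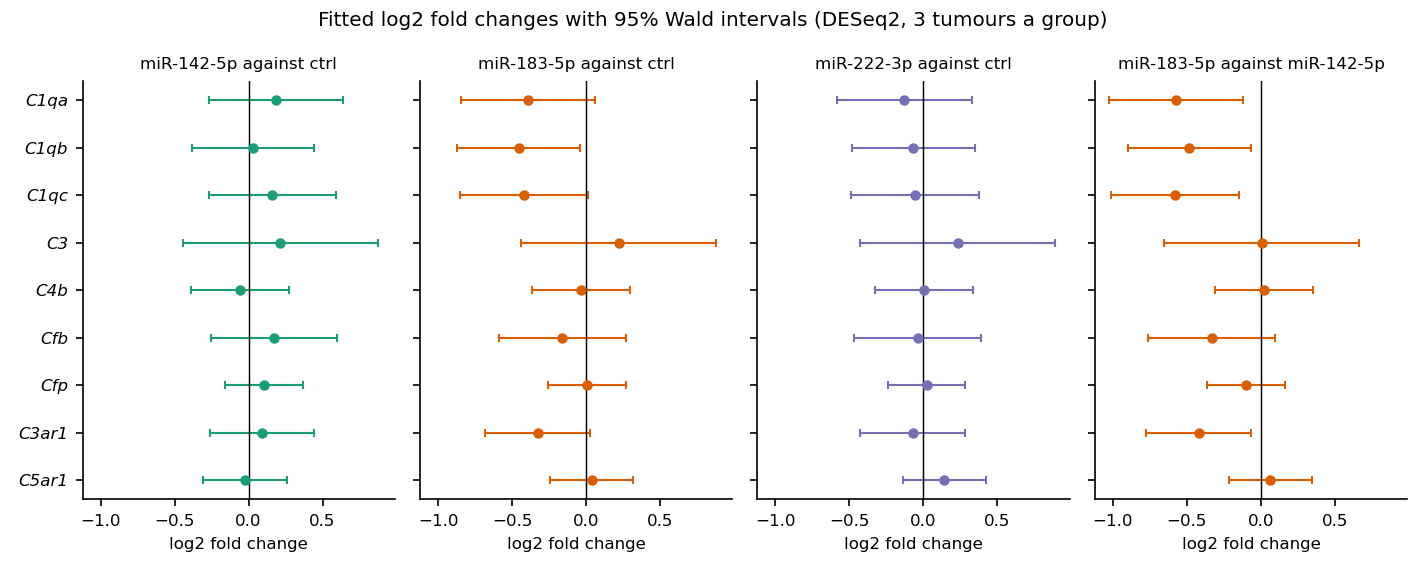
Log2 fold changes of the 9 genes with 95% Wald intervals from the DESeq2 fit, in 4 comparisons of 3 tumours against 3. Intervals of C1qa, C1qb, C1qc and C3ar1 lie below 0 for miR-183-5p relative to miR-142-5p, and that of C1qb also against ctrl. None of these passed after adjustment over all genes.

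Between miRNA groups the widest differences were those of miR-183-5p relative to miR-142-5p. None of the 9 genes was called (background 0.0519%), by DESeq2 or edgeR, and 4 of 9 had an unadjusted p under 0.05 with both tools, where 7.95% of all genes had one with DESeq2. They were C1qc at -0.58 (95% interval -1.01 to -0.15), C1qa at -0.57 (-1.03 to -0.12), C3ar1 at -0.42 (-0.77 to -0.07) and C1qb at -0.48 (-0.90 to -0.07). Their adjusted p-values in DESeq2 were 0.373, 0.427, 0.483 and 0.501. As the C1q genes varied together, these are not separate observations. Normalised counts did not overlap for C3ar1 and Cfp, 2 of 9 with lower values, against 6.43% of all genes tested. Leaving out miR-142-5p tumour 2, the highest in C1q, brought the values to -0.36 for C1qa, -0.32 for C1qb, -0.39 for C1qc and -0.29 for C3ar1, and leaving out miR-183-5p tumour 3 brought C1qa to -0.36.

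In miR-222-3p against miR-142-5p tumours, 0 of 9 genes were called (background 0.0389%) and 0 of 9 had an unadjusted p under 0.05 (background 3.59%). In miR-183-5p against miR-222-3p tumours, 0 of 9 were called (background 0.0324%) and 0 of 9 had an unadjusted p under 0.05 (background 3.24%), although all 9 estimates were below 0, with a median of -0.12. Without miR-222-3p tumour 2, 6 of the 9 were below 0. In both comparisons edgeR also called 0 and gave 0 unadjusted p-values under 0.05. A likelihood ratio test in DESeq2 for any difference among the 4 groups called 0 of 9 (background 0.0584%), and its lowest unadjusted p-values were 0.0676 for C1qc, 0.0916 for C1qb, 0.0936 for C1qa and 0.120 for C3ar1.

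C3ar1 holds seed matches to miR-183-5p and miR-222-3p but none to miR-142-5p. Its log2 fold changes against ctrl were -0.33 (95% interval -0.68 to 0.03), -0.07 (-0.43 to 0.28) and 0.09 (-0.26 to 0.45) in that order, and none passed the test (DESeq2). C1qa, C1qb and C1qc, which hold no match to any of the 3, had values between -0.45 and -0.39 in miR-183-5p tumours. The seed of the ctrl mimic was not searched, and the part of seed matches in these values was not tested.

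To see how the members tracked the cells present, each was compared over the 12 tumours with 3 marker scores, each the mean of log2(normalised count + 1) over a list of macrophage, neutrophil or fibroblast genes. None of the 9 genes is on these lists. P-values are from two-sided permutation tests with 100000 resamples, adjusted over the 27 relations. C3ar1 had the closest relation to the macrophage score, with r = 0.89 (adjusted p = 0.00216) and rho = 0.93 (adjusted p = 0.00121). C1qa, C1qb and C1qc had r = 0.81, 0.77 and 0.81 (adjusted permutation p = 0.00628, 0.0174 and 0.00628), with rho = 0.78, 0.72 and 0.78 (adjusted p = 0.0234, 0.0419 and 0.0234). Without the 2 tumours farthest from the median score, miR-142-5p tumour 2 and miR-183-5p tumour 3, r was 0.84 for C3ar1 but 0.57, 0.53 and 0.58 for the C1q genes (adjusted permutation p = 0.0799 and, for each C1q gene, 0.344). The C1q relation was thus weaker without those tumours, though leaving them out also narrows the range of the score. On deviations from group means, r was 0.83 for C3ar1 (adjusted permutation p = 0.0217) and 0.69, 0.66 and 0.69 for the C1q genes (0.103, 0.105 and 0.103). The permutations of deviations shuffled them across groups, although deviations within a group are tied to its mean. Their p-values can therefore be too low.

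**Figure D4:**
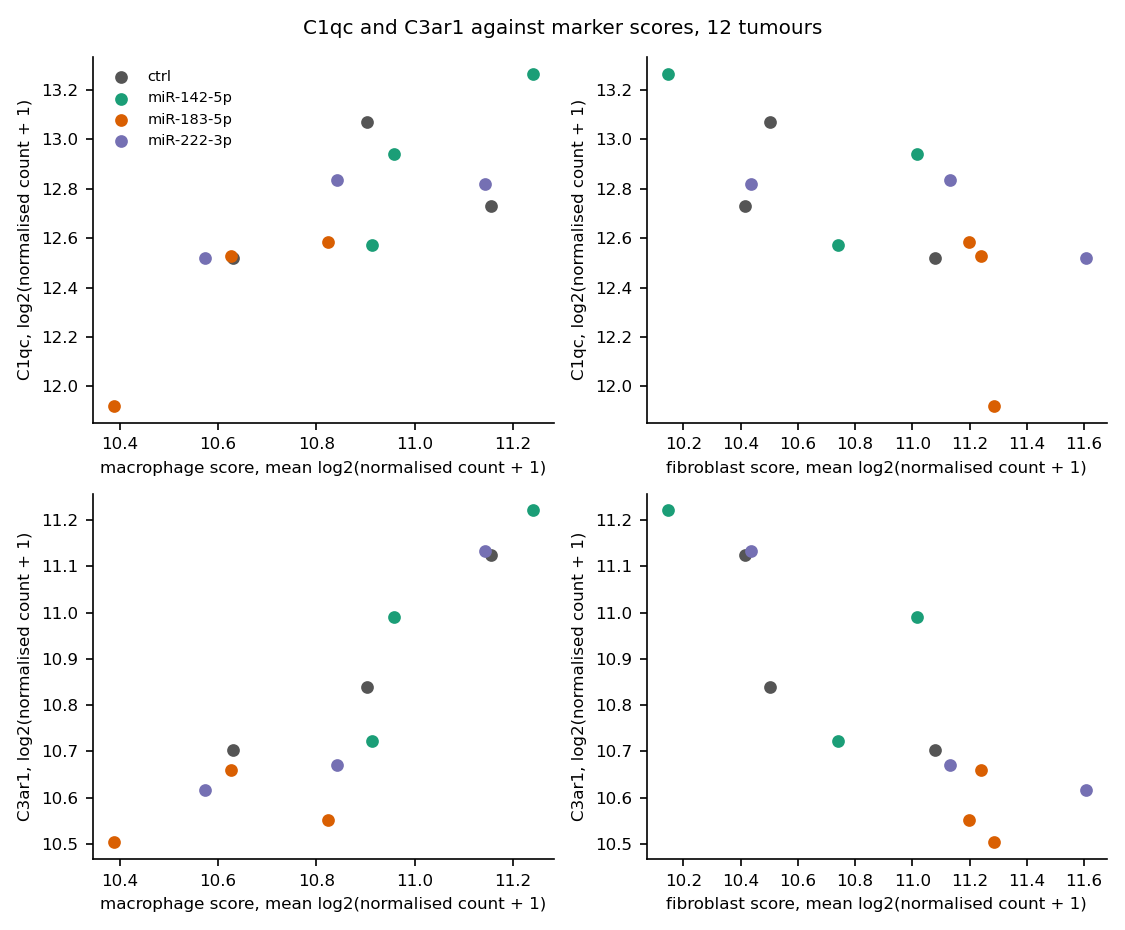
C1qc (top) and C3ar1 (bottom), as log2(normalised count + 1), against the macrophage score (left) and the fibroblast score (right) in 12 tumours coloured by group. Both genes are higher where the macrophage score is higher and lower where the fibroblast score is higher, and miR-183-5p tumour 3 is the lowest point in each panel.

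The fibroblast score ran the other way. C3ar1 had r = -0.85 with it (adjusted permutation p = 0.00628, rho = -0.94 with adjusted p = 0.00121), and C1qa, C1qb and C1qc had r = -0.69, -0.69 and -0.67 (adjusted permutation p = 0.0428, 0.0470 and 0.0470) with rho = -0.78, -0.73 and -0.71 (adjusted p = 0.0234, 0.0366 and 0.0425). Without the 2 farthest tumours, ctrl tumour 3 and miR-142-5p tumour 2, r was -0.73 for C3ar1 and -0.55, -0.63 and -0.57 for the C1q genes, none with an adjusted permutation p under 0.05 (0.212 and, for each C1q gene, 0.344). On deviations from group means, C3ar1 had r = -0.81 (adjusted permutation p = 0.0217, which can be too low for the same reason as with the macrophage score). All scores come from the same libraries, in which a higher share of one cell type lowers that of others, so the relations are not independent of each other.

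Over all 12 tumours, C5ar1 did not follow its sister receptor. Its r was -0.01 with the macrophage score, 0.13 with the neutrophil score and 0.04 with the fibroblast score (adjusted permutation p = 0.993, 0.881 and 0.993; rho = 0.00, 0.20 and 0.07, adjusted p = 1, 0.749 and 0.938). With the macrophage score, r of C5ar1 was 0.48 without miR-142-5p tumour 2 and miR-183-5p tumour 3, and 0.10 on deviations from group means. C3ar1 and C5ar1 had r = 0.20 and rho = 0.03 with each other (adjusted permutation p = 0.688 and 0.938), and the ratio of C3ar1 to C5ar1 TPM ran from 0.722 in miR-183-5p tumour 3 to 1.44 in miR-142-5p tumour 2. Their r was 0.43 on deviations from group means and 0.49 without both tumours holding other tissue. It was 0.08 without miR-142-5p tumour 2 and miR-222-3p tumour 1. C3, C4b, Cfb and Cfp passed with none of the 3 scores. The lowest adjusted permutation p among them was that of Cfb with the neutrophil score (r = -0.65, 0.0680; rho = -0.64, adjusted p = 0.0860), which on the log2(TPM + 1) scale was r = -0.88 (adjusted permutation p = 0.0027).

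Set against macrophage markers, the group means of C1q lay closer together. Macrophage markers summed to 578 ± 139 TPM in ctrl, 606 ± 60.5 in miR-142-5p tumours, 485 ± 58.4 in miR-183-5p and 578 ± 128 in miR-222-3p tumours. The summed TPM of the C1q genes per macrophage marker TPM was 3.09 ± 0.66, 3.10 ± 0.52, 2.65 ± 0.59 and 2.88 ± 0.23 in that order (SD, n = 3). All 4 groups overlapped in this ratio, and the lowest value was 2.07 in miR-183-5p tumour 3. Whether a difference in macrophage number accounts for the C1q values was not tested.

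The genes whose pattern over the 12 tumours was most like each member were taken by Pearson r among 11533 tested genes with a mean normalised count of at least 100. For C1qa they were Cebpa (r = 0.95) and Ctss (0.95), for C1qb Ly86 (0.96) and Tyrobp (0.96), and for C1qc Cebpa (0.96) and Ly86 (0.95). For C3ar1 Ccl8 had 0.94. Cebpa encodes a transcription factor of myeloid cells, Ctss the lysosomal protease cathepsin S, Tyrobp a myeloid signalling adaptor and Ccl8 a chemokine. Among the other members, the genes most alike were Gadd45b (0.82) and Mrpl35 (0.82) for C3, Hnrnpa0 (0.93) and Gstp1 (0.92) for C4b, and Snrnp35 (0.90) and Ms4a4c (0.89) for Cfb. For Cfp they were Crlf2 (0.93) and Zfp688 (0.87), and for C5ar1 Pcyt1a (0.87) and the pseudogene Rps18-ps3 (0.87). With so many genes and 12 tumours, r of this size are descriptions of the nearest patterns only.

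The rest of the system was expressed unevenly. Of 51 complement genes listed, 50 were measured and 37 passed the count filter. The initiating end was well represented, with 9 of 9 measured classical pathway genes tested, whereas 4 of 9 lectin and 3 of 7 terminal pathway genes passed. Mbl1 and Mbl2, the mannose-binding lectins, and C8b, named here for their values, were at 0 TPM in all 12 tumours. After the C1q genes and C4b, the classical proteases C1s1 and C1ra averaged 34.6 and 33.5 TPM. In the lectin list the highest were Colec12, a scavenger receptor, at 18.1 TPM, the protease Masp1 at 15.3 TPM and the ficolin gene Fcna at 12.0 TPM. Terminal pathway genes were low, with C6 at 9.76, C8g at 6.10 and Hc, the gene for C5, at 1.60 TPM on average.

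**Figure D5:**
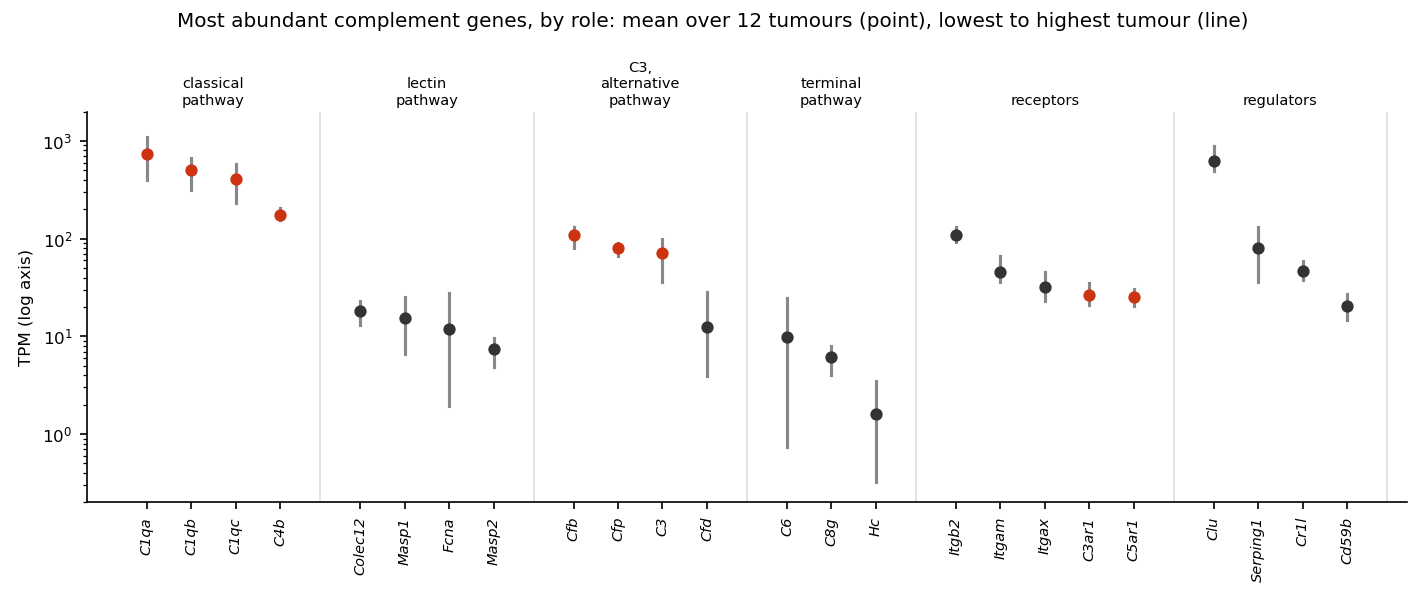
Mean TPM over 12 tumours (points, log axis) with a line from the lowest to the highest tumour, for 24 complement genes, the 4 most abundant of each role that were tested and the remaining member, with the 9 genes followed here in red. The C1q genes and the regulator Clu stand highest, and terminal pathway genes low.

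Among the other receptors, the integrin chains Itgb2, Itgam and Itgax, which form the receptors for cleaved C3, averaged 109, 45.6 and 31.7 TPM, all above C3ar1 and C5ar1. Among regulators, Clu, the gene for clusterin, averaged 623 TPM, close to C1q, followed by Serping1, the C1 inhibitor, at 79.4 TPM and Cr1l, the membrane regulator Crry, at 47.2 TPM. Vsig4, a complement receptor of resident macrophages that was also named for its values, was at most 0.583 TPM in any tumour.

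None of the 37 genes tested was called in any of the 6 comparisons (DESeq2; edgeR also 0). Unadjusted p-values under 0.05 numbered 1 in miR-142-5p against ctrl, 2 in miR-183-5p against ctrl, 1 in miR-222-3p against ctrl, 8 for miR-183-5p relative to miR-142-5p, 2 in miR-222-3p against miR-142-5p and 4 in miR-183-5p against miR-222-3p. As shares of the 37 genes these were 2.70%, 5.41%, 2.70%, 21.6%, 5.41% and 10.8%, beside 3.56%, 3.22%, 2.29%, 7.95%, 3.59% and 3.24% of all genes tested. In 4 of the comparisons the count was thus within about 1 gene of the background share. The 8 include the C1q genes and C3ar1, and also Cfd, Cd55 and C6, which are named here after their values were seen. Cfd, the protease that activates factor B, was at 5.26, 4.79 and 7.35 TPM in miR-142-5p tumours and at 11.8, 20.2 and 28.4 TPM in miR-183-5p tumours, with no overlap. Its log2 fold change for miR-183-5p relative to miR-142-5p was 1.82 (95% interval 0.79 to 2.84, adjusted p = 0.121 in DESeq2). Ctrl tumours were at 13.0, 22.7 and 6.06 TPM and overlapped with both groups. Relative to ctrl, the log2 fold change of Cfd was -1.27 in miR-142-5p tumours (-2.30 to -0.24, adjusted p = 1 in DESeq2) and 0.55 in miR-183-5p tumours (-0.46 to 1.57, adjusted p = 0.9998). Cd55, the membrane regulator that dissociates C3 convertases, was at 2.00, 5.37 and 6.55 TPM in miR-142-5p and at 1.67, 0.981 and 1.14 TPM in miR-183-5p tumours, a log2 fold change of -1.84 (-3.03 to -0.64, adjusted p = 0.220 in DESeq2). With only these 2 groups in the fit, both Cfd and Cd55 passed, where 71 of the 14210 genes tested were called.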

How the data were processed

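Polyadenylated RNA of 12 tumours, 3 in each of 4 groups taken from the labels, was sequenced by the authors as paired-end reads from stranded libraries. Per the labels and methods, the reads were assigned to transcripts with Salmon. The deposited tables hold estimated counts (expected counts, which need not be whole), TPM and effective lengths per transcript, and the Ensembl release they use differs between sources. Here, 98.3% of transcripts were matched to GENCODE M21 on GRCm38. Counts were summed per gene and rounded, with effective length as an offset. A gene was tested if 3 or more libraries held 10 or more of its reads, which left 15459 genes, fitted in DESeq2 1.42.0 (R 4.3.3), with all 12 tumours in 1 fit and Benjamini-Hochberg adjustment. Scores and correlations used log2(normalised count + 1). Likewise, C1q per macrophage marker is a ratio of summed TPM. Tumours count as replicates, since the labels describe them as separate tumours, and the total of 20285968 to 27021401 reads per library was ample for all 9 genes.

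The members, gene lists and tests were chosen with earlier results of these data known. Named genes were the 9 members, complement genes called in any comparison, the 3 most abundant genes of each complement list, and the 2 genes most like each member. Mbl1, Mbl2, C8b, Vsig4, Cfd, Cd55 and Cr2, and the ranges of C6 and Serping1, were chosen after their values were seen. A further gene that this rule includes is not reported here. Alternatives were edgeR 4.0.16, TMM factors, other count filters, no length offset, only the 2 groups compared, a replicate block, each tumour left out, a threshold of 0.1 and protein-coding genes only. Scripts were tested on simulated counts. Sequences were searched with Python 3.11.15 and near copies with BLAST 2.17.0. Libraries of 1 group differed by far more than sampling noise (chi-square per degree of freedom at least 14.0).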

Additional observations from a re-analysis of the deposited data

How the results depend on the processing

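The count of members called stayed at 0 in all 6 comparisons under every alternative run (edgeR, TMM factors, no filter, at least 50 reads in every library, no length offset, only the 2 groups, replicate block, protein-coding genes, a threshold of 0.1, each tumour left out, and both tumours with other tissue left out, the last chosen after seeing the data). The complement list gave 2 calls, Cfd and Cd55, for miR-183-5p relative to miR-142-5p with only the 2 groups in the fit. There, 71 of the 14210 genes tested were called. With 1 tumour left out, its calls in that comparison ranged from 0 to 1 (Cd55, without miR-142-5p tumour 1, where 415 of 14548 genes were called). In miR-222-3p against miR-142-5p they also ranged from 0 to 1 (Cd55, without miR-222-3p tumour 1, where 9 of 15410 genes were called). The cause was not tested. Sign changes were counted in the 3 comparisons with ctrl and in miR-183-5p relative to miR-142-5p. There, 55 of 544 alternative log2 fold changes of members changed sign, in each case where the reported value lay within 0.792 SE of 0. Comparisons of miR-222-3p with the other miRNA groups also held sign changes. One was C1qb in miR-222-3p against miR-142-5p, reported at -0.10 with alternatives up to 0.06. C1qa, C1qb, C1qc and C3ar1 stayed below 0 in miR-183-5p against both ctrl and miR-142-5p. Relations with marker scores passing numbered 8, but 2 on deviations from group means, 0 without the 2 farthest tumours and 3 without both tumours holding other tissue. The count on deviations rests on permutations across groups, whose p-values can be too low. The replicate numbers did not pair the tumours (mean correlation of same-numbered deviations -0.07 over 18 pairs, against 0.03 over 36 others), and the replicate block left 0 members called. Summing C4b with C4a was not run, because C4a was not analysed here. With 3 tumours a group, standard errors of 0.13 to 0.34 log2 units, rather than depth, set the limit.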

Other observations

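Markers of other cells were distributed unevenly over the same tumours. Red blood cell precursor markers (4 genes) summed to between 106 and 194 TPM in miR-222-3p tumours, and to at least 186 TPM in the other tumours. No test was run on this sum.

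Among complement genes outside the 9, Cr2, the receptor for C3 fragments on B cells, was at 28.5 TPM in miR-142-5p tumour 3, the tumour with B cell markers, and at most 11.8 TPM in the other tumours. Few reads lay behind these values, with a normalised count of 61.4 in that tumour and between 10.8 and 27.5 in the others. The part of B cells in the Cr2 values was not tested. C6 ran from 0.739 TPM in miR-183-5p tumour 3 to 25.0 TPM in miR-142-5p tumour 2, the same tumours that held the lowest and the highest C1q. Serping1 ran from 36.1 TPM in miR-142-5p tumour 2 to 131 TPM in miR-222-3p tumour 2. These genes were chosen after their values were seen.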
